A study of Mus musculus with 28 samples.

Results

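The type I interferon response was followed through 37 genes, chosen by name as the 2 chains of the interferon receptor, the factors that carry its signal and a panel of genes that interferon is known to induce. All 37 were found among the 40481 mouse genes counted in RNA sequencing libraries of sorted brain cells. Microglia, taken with an antibody to CD11b, and astrocytes, taken with an antibody to ACSA-2, came from pooled cortex, hippocampus and thalamus of each mouse. Every mouse was APOE4fl/fl, with a human APOE4 gene flanked by loxP sites, and every mouse was given tamoxifen at 3.8 months, in 2 intraperitoneal doses of 100 mg/kg, with cells sorted 10 days later. The controls therefore carry the floxed human gene and the tamoxifen as well. APPPS1 mice carry transgenes for mutant human amyloid precursor protein and presenilin and form amyloid plaques, and ALDH1L1-CreERT mice carry a tamoxifen-activated Cre that the Aldh1l1 promoter directs to astrocytes. The libraries used here came from 5 APPPS1::APOE4fl/fl mice (APPPS1, Cre-negative), 4 APPPS1::APOE4fl/fl::ALDH1L1-CreERT mice (APPPS1, Cre-positive), 2 APOE4fl/fl mice (amyloid-free, Cre-negative) and 2 APOE4fl/fl::ALDH1L1-CreERT mice (amyloid-free, Cre-positive), 1 library of each cell type per mouse. The series' design text counts 4 mice in each APPPS1 group, whereas the sample labels, followed here, give 5 in each before mouse 459 was left out.

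Type I interferons bind a receptor made of the Ifnar1 and Ifnar2 chains, which activates the kinases Jak1 and Tyk2 and transcription factors such as Stat2. Stat2 and Irf9 act in a complex that binds the interferon-stimulated response element in the promoters of a large set of antiviral genes. The induced proteins sense viral RNA and DNA, block translation, trap virus particles at membranes and tag proteins with the ubiquitin-like Isg15. Microglia near amyloid plaques are known to include cells with high levels of these genes.

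The study asked what happens to both cell types when astrocytes lose APOE4 in brains with amyloid. Libraries held from 26139519 to 59165002 mouse gene counts. Both libraries of a further APPPS1 Cre-positive mouse, number 459, carried the expression profile opposite to their label and were left out: its library labelled astrocyte lay above every astrocyte library for 32 of the 37 genes, and its library labelled microglia lay within the astrocyte range for 36. Levels are given in CPM, the usual count scaling, here relative to all mouse gene counts of a library. In the libraries used the 12 microglia markers summed to 19040 to 43770 CPM in microglia and to 96.4 to 146.6 CPM in astrocytes. Human APOE, the gene that Cre targets, stood at 507.4 to 827.2 CPM in astrocytes of APPPS1 Cre-positive mice and at 1273 to 1864 CPM in those of APPPS1 Cre-negative mice. It stood at 521 and 926 CPM in amyloid-free Cre-positive astrocytes and at 1052 and 1411 CPM in amyloid-free Cre-negative ones. In sorted bulk samples, fewer cells that express a gene and less RNA per cell cannot be told apart. Mice are the replicates, and p-values measure the spread between these mice only.

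The promoters were read first, because the response element is the sequence through which most of these genes are known to be induced. A RefSeq promoter window on GRCm38.p6, running from 250 bases before to 50 bases after the start, was at hand for 27 of the 37 genes. The core of the element was read as GAAA, any 2 bases and GAAA again on either strand. It was present in at least 1 window of 13 of the 27 genes (48.1%) and of 3.99% of all 27025 genes. The longer form, the core followed directly by C, was present in 11 (40.7%) against 0.944%. The gamma-activated site TTCNNNGAA was present in 7 (25.9%) against 9.55%. These shares describe a list that was chosen for its induction by interferon. Usp18, Rtp4, Ifi27, Ifi27l2a, Parp14, Mx1, Mx2, Oas2, Zbp1 and Dhx58 had no window. The stretches upstream of the start are shown for 6 genes that the results below return to, with every match to the core in capitals, each read 5′ to 3′ along the strand of its gene. Bst2 lies at chr8:71537567-71537622 on the minus strand, Ifit1 at chr19:34640765-34640833, Ifit3 at chr19:34583353-34583436 and Ifit3b at chr19:34607749-34607832 on the plus strand, and Isg15 at chr4:156200855-156200916 and Oas1a at chr5:120907526-120907565 on the minus strand.
Bst2: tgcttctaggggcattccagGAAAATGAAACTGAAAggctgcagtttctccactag
Ifit1: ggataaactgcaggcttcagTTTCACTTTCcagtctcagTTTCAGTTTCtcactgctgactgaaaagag
Ifit3: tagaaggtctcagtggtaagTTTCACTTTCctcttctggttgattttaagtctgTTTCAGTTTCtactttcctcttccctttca
Ifit3b: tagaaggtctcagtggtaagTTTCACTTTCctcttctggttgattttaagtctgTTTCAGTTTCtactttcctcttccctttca
Isg15: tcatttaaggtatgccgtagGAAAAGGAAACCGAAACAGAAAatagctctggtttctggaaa
Oas1a: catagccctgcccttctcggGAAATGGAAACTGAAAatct
Bst2 and Oas1a each hold 2 overlapping cores and Isg15 holds 3. Ifit1, Ifit3 and Ifit3b each hold 2 separate cores on the opposite strand. The stretches of Ifit3 and Ifit3b, neighbouring copies on chromosome 19, are the same in all 84 bases, with 0 mismatches. The transcripts of these copies also overlap, with 51.2% of the 50-base stretches of Ifit3 found in Ifit3b, and 57.6% of those of Oas1a are found in Oas1g. No source used here says how the authors' counting divided reads among such copies, and the counts of Ifit3, Ifit3b and Oas1a are uncertain to that extent.

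The sorts differed far more than the genotypes did. Of the 37 genes, 31 were higher in microglia and 1 was lower, at a Benjamini-Hochberg adjusted p under 0.05 in edgeR's quasi-likelihood test over 26 libraries, where 76.5% of all 21612 genes tested passed, 35.4% as higher and 41.1% as lower. The median log2 difference, microglia minus astrocytes, was 2.35 over the 37 genes and -0.18 over all genes. All 13 microglia libraries lay above all 13 astrocyte libraries for 20 of the 37 genes, as they did for 12.1% of all genes. Scaling by size factors of the DESeq2 kind moved the median of all genes to -0.30, and 2 genes of the set were then lower in microglia.

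By role, all 4 transcription factors (Irf7, Irf9, Stat2 and the nuclear body protein Sp100), all 4 nucleic acid sensors, all 4 members of the Oas family, both Mx GTPases and all 4 genes of the Isg15 pathway were higher in microglia. The 12 largest differences included Oas3 (log2 difference 9.54), Mx1 (8.44), Ifi27l2a (7.34), Oas1a (6.62), Zbp1 (5.90) and Trim30a (5.69). Oas3 and Oas1a make the oligoadenylates that activate RNase L, Mx1 belongs to a family of antiviral GTPases, and Zbp1 senses unusual nucleic acid structures. Mx1 had 6.67 to 11.6 CPM in microglia and 0 to 1.11 CPM in astrocytes, at 0 in all 4 amyloid-free libraries, and Oas3 had 2.81 to 19.1 CPM against 0 to 2.56 CPM, so the fitted differences of these 2 genes rest on astrocyte counts near 0. The others of the 12 were Parp14 (4.77), Bst2 (4.17), Sp100 (3.66), Ifi35 (3.57), Dhx58 (3.32) and Oas2 (3.15). The remaining 19 genes called higher had differences from 0.57 (Ifi27) to 3.07 (Irf7). Fitted differences include edgeR's TMM scaling of the libraries, which the CPM printed here leave out. In CPM, Ifi27 had a median of 151 in microglia and 148 in astrocytes.

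The Ifit family, which binds viral RNA ends, did not follow that order. Only Ifit2 was higher in microglia, with a log2 difference of 2.58 ± 0.27 (SE). Ifit3b was lower, at -0.89 ± 0.18 (edgeR, adjusted p = 9.37e-05), with 7.29 to 20.4 CPM in microglia and 18.5 to 66.4 CPM in astrocytes. Ifit3 (0.31, adjusted p = 0.0837) and Ifit1 (0.42, adjusted p = 0.114) were not called by edgeR. Neither were Ifnar1 (0.16), Cmpk2 (-0.54), a mitochondrial nucleotide kinase, and Ifi44 (0.09). In CPM, without TMM scaling, the medians of Ifit3, Ifit1, Ifnar1 and Ifi44 were lower in microglia, against the sign of the fitted differences. They stood at 56.1, 13.9, 48.9 and 1.09 CPM in microglia and at 61.1, 17.6, 66.1 and 2.07 CPM in astrocytes. Per kilobase of exon, the order of the top genes depended on the mice. In the 9 APPPS1 microglia libraries Lgals3bp stood at 259.8 ± 88.1 CPM per kb (SD), Ifitm3 at 238 ± 73.7 and Ifi27l2a at 211 ± 73.4, differences inside the SD. In the 4 amyloid-free ones Ifitm3 stood at 456 ± 387, a mean and SD set by mouse 26, Ifi27l2a at 122 ± 66.6 and Lgals3bp at 64.6 ± 22.7. In astrocytes Ifitm3 and Ifi27, a mitochondrial protein, led at 103 ± 28.4 and 101 ± 10.5 CPM per kb in APPPS1 mice, again inside the SD, followed by Lgals3bp at 55.7 ± 8.14 and Ifit3 at 41.3 ± 7.64.

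**Figure D1:**
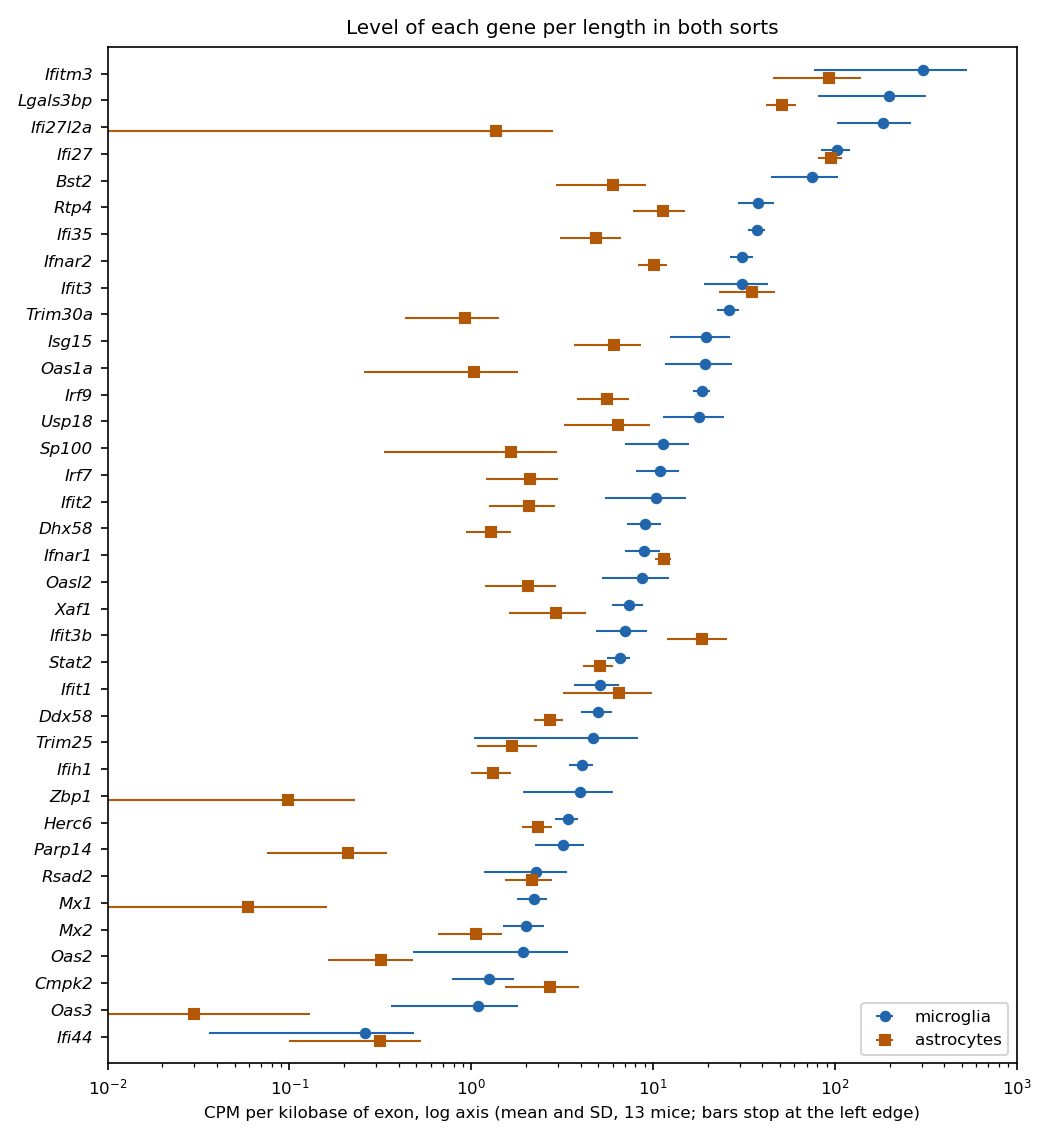
Level of each of the 37 genes in microglia (circles) and astrocytes (squares), in CPM per kilobase of exon on a log axis, as the mean and SD of 13 mice, with bars stopped at the left edge where the SD exceeds the mean. Most genes sit further right in microglia, while Ifit3b sits at 7.04 in microglia and 18.7 in astrocytes.

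In microglia, 6 of the 37 genes were higher in APPPS1 than in amyloid-free mice, averaged over Cre, and 0 were lower. In the same fit 9.58% of 17593 genes passed in either direction, 6.06% as higher and 3.52% as lower. The 6 were Lgals3bp, Ifit2, Ifit3, Bst2, Usp18 and Ifnar2, and they span a secreted glycoprotein, effectors, a negative regulator and a receptor chain. The median log2 change was 0.17 over the 37 genes and -0.05 over all genes. In the 2-mouse amyloid-free groups 1 library weighs heavily, and the libraries are therefore given one by one.

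Lgals3bp, a secreted glycoprotein that binds galectins, had 592, 683, 314, 1011 and 1188 CPM in the APPPS1 Cre-negative microglia. It had 618, 726, 707 and 819 CPM in the APPPS1 Cre-positive ones. The amyloid-free libraries had 257 and 215 CPM without Cre and 150.5 and 112.5 CPM with Cre. All 9 APPPS1 libraries lay above all 4 amyloid-free libraries, which no other gene of the 37 did and which 2.0% of all genes did. The log2 change was 2.22 ± 0.31 (edgeR, adjusted p = 0.00162), and it stayed past the threshold when any 1 of the 13 mice was left out. Ddx58, the RNA sensor also called RIG-I, had all APPPS1 libraries below all amyloid-free ones, at 28.8 to 34.5 against 39.3 to 53.3 CPM, as 2.23% of genes did, but its change of -0.32 ± 0.11 was not called (edgeR, adjusted p = 0.0736).

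Ifit2, which inhibits translation and binds RNA, had 30.3, 35.8, 25.5, 74.4 and 67.4 CPM in APPPS1 Cre-negative microglia and 43.0, 66.8, 51.8 and 45.8 CPM in APPPS1 Cre-positive ones. Amyloid-free libraries had 22.8 and 18.3 CPM without Cre and 20.8 and 25.7 CPM with Cre. Only the library of mouse 469, at 25.5 CPM, fell inside the amyloid-free range, and the log2 change was 1.33 ± 0.29 (edgeR, adjusted p = 0.0150). Ifit3, a partner of Ifit1, had 46.8, 56.1, 32.3, 84.1 and 87.7 CPM in APPPS1 Cre-negative microglia and 57.5, 78.0, 59.4 and 68.0 CPM in APPPS1 Cre-positive ones. Amyloid-free libraries had 35.1, 31.3, 27.0 and 39.0 CPM. Mouse 469 was again the only APPPS1 library in the amyloid-free range, and the change was 1.10 ± 0.26 (edgeR, adjusted p = 0.0192). Its copy Ifit3b changed by 0.77 ± 0.25 and was not called (edgeR, adjusted p = 0.0643), and neither was Ifit1, at 0.36 ± 0.27.

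Bst2, or tetherin, which holds budding virus at the cell membrane, had 100.9, 82.9, 65.9, 83.8 and 129 CPM in APPPS1 Cre-negative microglia and 43.9, 70.4, 66.4 and 57.0 CPM in APPPS1 Cre-positive ones. Amyloid-free libraries had 56.8 and 56.6 CPM without Cre and 27.4 and 37.1 CPM with Cre. Within each Cre state the APPPS1 libraries lay above the amyloid-free ones, and the change averaged over Cre was 0.95 ± 0.20 (edgeR, adjusted p = 0.0121). Usp18, which removes Isg15 from proteins and dampens signalling at the Ifnar2 chain, had 55.1, 56.2, 27.3, 77.6 and 86.9 CPM in APPPS1 Cre-negative microglia. It had 56.4, 63.3, 45.6 and 48.0 CPM in APPPS1 Cre-positive and 34.0, 29.2, 31.3 and 41.9 CPM in amyloid-free libraries. Mouse 469 was below all of the latter. The change of 0.90 ± 0.26 lay close to the threshold (edgeR, adjusted p = 0.0440) and was lost in 10 of the 13 fits without 1 mouse.

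Ifnar2, the signalling chain of the receptor, had 118, 115, 89.7, 119 and 117 CPM in APPPS1 Cre-negative microglia and 94.7, 111, 119 and 116 CPM in APPPS1 Cre-positive ones. Amyloid-free libraries had 79.4, 93.6, 85.9 and 86.0 CPM. The change was 0.51 ± 0.12 (edgeR, adjusted p = 0.0227), with only mouse 469 inside the amyloid-free range. That range is in CPM, which leave out the TMM scaling of the fitted change. In CPM the means were 111 in APPPS1 and 86.2 in amyloid-free libraries, a smaller change than the fitted one. The other chain, Ifnar1, had 59.0, 48.9, 44.8, 48.3 and 42.9 CPM in APPPS1 Cre-negative, 46.9, 49.6, 49.7 and 47.9 CPM in APPPS1 Cre-positive and 66.4, 46.0, 54.8 and 86.2 CPM in amyloid-free libraries, and its change of -0.23 ± 0.14 was not called.

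**Figure D2:**
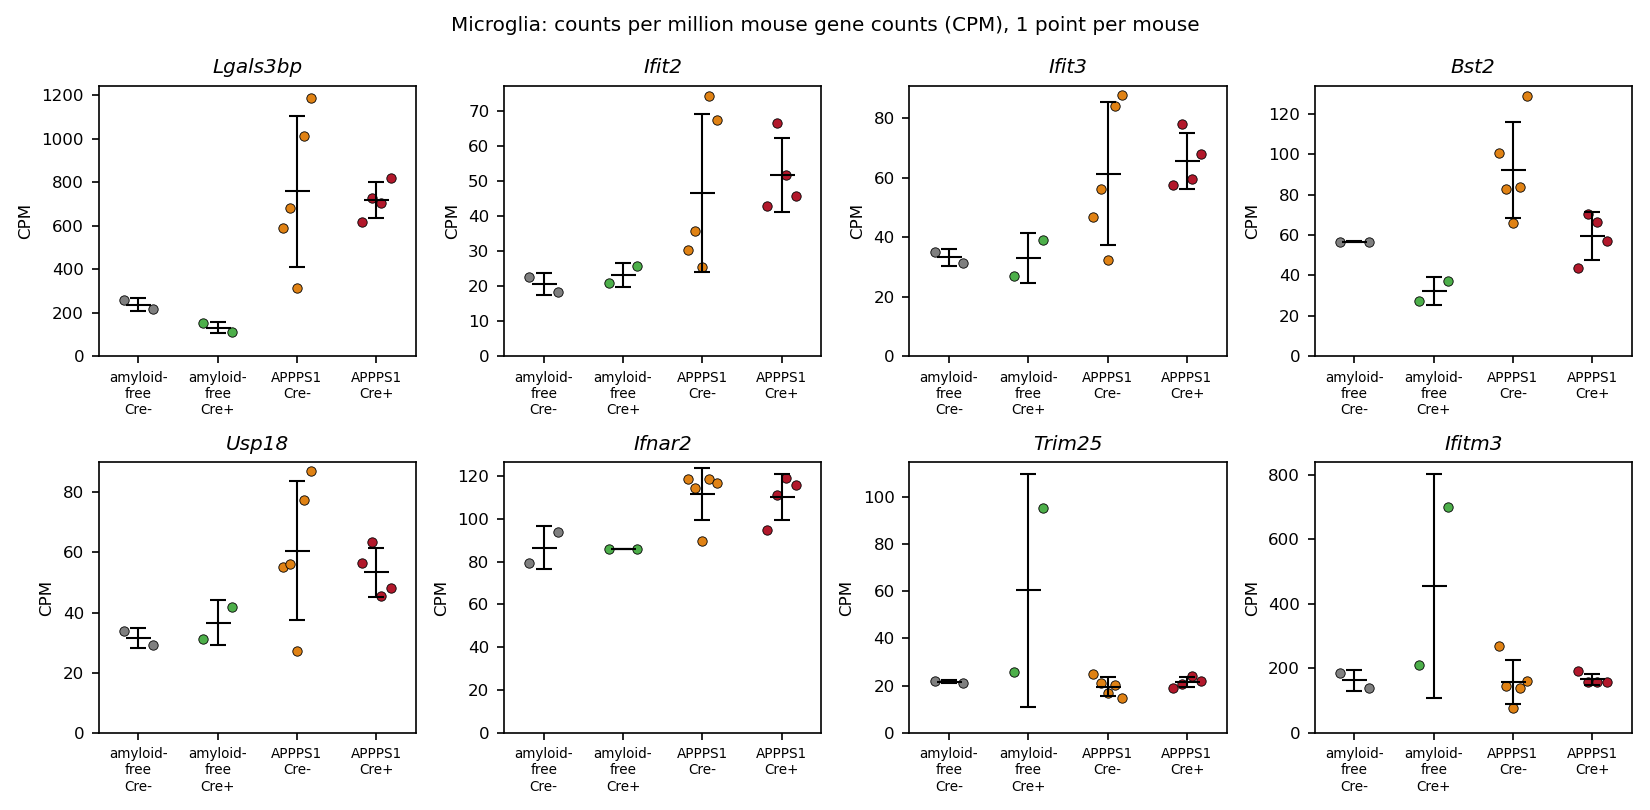
CPM of 8 genes in microglia, 1 point per mouse, with the mean and SD of each genotype group as horizontal and vertical bars. Lgals3bp separates all APPPS1 from all amyloid-free libraries, and for Trim25 and Ifitm3 a single amyloid-free Cre-positive mouse, number 26, stands far above the rest at 95.3 and 700 CPM.

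The count of 6 depended on the libraries. It was 1 without the amyloid-free mouse 759, 3 without mouse 465 or mouse 26 and 12 without the APPPS1 mouse 469. The share of all genes called in those fits is not given here. With the library of mouse 459 labelled microglia added, the count was 0. That library holds the opposite profile, so the fit with it cannot judge the 6 calls. Bst2 was lost without mouse 759, Ifit2 without mouse 26 or 759, Ifit3 without mouse 465 or 759, and Ifnar2 without mouse 26, 465 or 759. Markers of other cells also moved with amyloid in microglia. Of the 12 astrocyte markers 6 were called lower and 1 higher in APPPS1, with a median log2 change of -2.09, and their sum was 259.7 to 334 CPM in APPPS1 and 302 to 451 CPM in amyloid-free microglia, with 0 to 3 of the 12 at 0 in a library. With Cre, 9 of the 12 were called lower, with a median of -3.85. The 10 endothelium markers, none of them at 0, summed to 35.4 to 97.0 CPM in APPPS1 libraries, to 69.2 and 81.4 CPM in amyloid-free Cre-negative libraries, and to 154 and 359 CPM in amyloid-free Cre-positive ones; 5 of the 10 were called lower in APPPS1. With the mean of these markers as a covariate, 0 of the 37 genes and 5 of all genes passed, while the log2 change of Lgals3bp was 1.95 ± 0.45 and that of Ifit2 1.41 ± 0.47. With the mean of all other-cell markers as a covariate, 0 genes of either kind passed and the change of Lgals3bp was 0.71 ± 0.56. That mean was 0.78 to 1.42 on the log2 scale in APPPS1 libraries and 1.39 to 2.87 in amyloid-free ones. It nearly divides the mice by amyloid, so this fit cannot separate the markers from amyloid. The 4 markers of plasmacytoid dendritic cells, cells known for high interferon output, summed to 35.0 to 174 CPM in APPPS1 and 9.83 to 17.3 CPM in amyloid-free microglia. Most of this was Cox6a2 and Pacsin1, while Klk1 was at 0 in every library and Ccr9 was at 0 to 1.74 CPM. The part that these other cells have in the result was not tested.

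The signal-carrying factors did not pass in microglia. Irf7, the factor that amplifies interferon production, had 50.6, 33.3, 29.3, 49.6 and 47.2 CPM in APPPS1 Cre-negative, 46.3, 38.7, 29.97 and 37.9 CPM in APPPS1 Cre-positive and 52.0, 27.3, 31.8 and 64.0 CPM in amyloid-free libraries. Irf9 had 105, 81.4, 92.1, 104.5 and 115 CPM, then 94.7, 110.1, 98.5 and 98.4 CPM, and 112, 111, 85.7 and 91.0 CPM in the same order of groups. Stat2 had 33.5, 34.5, 35.2, 48.2 and 40.4 CPM, then 31.0, 38.2, 36.8 and 37.3 CPM, and 48.9, 35.3, 40.0 and 46.0 CPM. The groups overlapped for all 3 factors, with log2 changes of 0.03 ± 0.24, 0.16 ± 0.13 and -0.05 ± 0.14. Among the rest, the sensors Ifih1 (0.04), Dhx58 (0.02) and Zbp1 (-0.21), Isg15 itself (0.17) and the Mx genes (0.07 and 0.38) were not called. In the Oas family the fitted changes ran from -1.003 (Oas2 and Oas3) to 0.79 (Oasl2), all uncalled.

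Split by Cre, 0 of the 37 genes passed for amyloid in Cre-negative microglia, where 0.313% of genes did, 0.279% as higher and 0.0341% as lower. At an unadjusted p under 0.05 there were 8, where 11% of all genes were. DESeq2 called 3 of the set and 454 of all genes, and limma voom 0 of the set. The lowest p-values belonged to Lgals3bp (log2 change 1.81 ± 0.43), Ifit2 (1.31 ± 0.41), Bst2 (0.83 ± 0.27) and Usp18 (1.07 ± 0.37), with adjusted p-values from 0.102 to 0.287 in edgeR. In Cre-positive microglia 3 passed, where 7.05% of genes did, 3.65% as higher and 3.39% as lower: Lgals3bp rose by 2.63 ± 0.46 (edgeR, adjusted p = 0.0189), Bst2 rose by 1.07 ± 0.29 (0.0406) and Trim25 fell by 1.30 ± 0.34 (0.0364). In the 13 fits without 1 mouse, Lgals3bp was lost without mouse 26 or 458, Bst2 kept its call in 6 and Trim25 in 5. The difference of the amyloid change between the Cre states was called for 0 genes of the set and 0.0% of all genes, with 2 of the set and 8.68% of all genes at an unadjusted p under 0.05 and 0 of the set called by DESeq2 or limma voom. The lowest p-values of that difference were those of Trim25 (-1.25 ± 0.49), Ifitm3 (-1.32 ± 0.61), Rsad2 (-1.06 ± 0.60) and Irf9 (0.42 ± 0.25).

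Trim25, a ubiquitin ligase that acts with RIG-I and can also attach Isg15, rested on mouse 26. It had 25.6 CPM in the amyloid-free Cre-positive mouse 22 and 95.3 CPM in mouse 26, against 19.2, 20.7, 24.3 and 22.0 CPM in APPPS1 Cre-positive microglia. It had 25.04, 21.0, 16.9, 20.3 and 14.6 CPM in APPPS1 Cre-negative and 22.1 and 21.2 CPM in amyloid-free Cre-negative libraries. Without mouse 26 the log2 change was -0.04 ± 0.26, and with the markers of other cells as a covariate it was 0.42 ± 0.92, of the opposite sign. The covariate did not overlap between the Cre-positive groups, so that fit cannot separate the markers from amyloid. In the microglia of mouse 26 the microglia markers summed to 19040 CPM, below the 35920 to 43770 CPM of the other 12 libraries, and the 8 monocyte and neutrophil markers, none at 0, to 5330 CPM, above the 181 to 4003 CPM of the others. Compared with mouse 22, mouse 26 was higher for 33 of the 37 genes, a count not given here over all genes. Among them were Ifitm3 (700 against 210.2 CPM), Sp100 (189.7 against 78.5 CPM), Zbp1 (35.8 against 11.7 CPM) and Isg15 (28.8 against 9.81 CPM). What part those cells have in these values was not tested.

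In astrocytes, 0 of 36 genes tested passed for amyloid averaged over Cre, as did 0.0% of all 20052 genes in edgeR. At an unadjusted p under 0.05 there were 19 of the 36, against 7.03% of all genes. DESeq2 called 8 of the set, all higher, and 254 of all 20052 genes, and limma voom called 0 of the set. The fitted change was positive for 32 of the 36, with a median of 0.65 on the log2 scale against 0.04 over all genes. The genes of the set are regulated together and are not independent, so this count carries no test. Markers of some other cells lay in the same direction, with 0 of each list called. The median change was 1.41 over the 10 endothelium markers and 0.73 over the 8 pericyte and smooth muscle markers. It was 1.25 over the 5 monocyte and neutrophil markers tested, but 0.999 without Cre and -5.1 with Cre. Medians of the microglia, neuron and oligodendrocyte markers lay the other way, at -0.22, -0.14 and -0.03. The part of these cells in the shift of the set was not tested. Oas3 had too few counts in astrocytes to be tested.

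The lowest p-value was that of Ifit3. Its astrocyte libraries had 75.2, 59.4, 58.5, 78.4 and 66.0 CPM in APPPS1 Cre-negative mice and 92.3, 61.1, 65.6 and 92.5 CPM in APPPS1 Cre-positive mice. Amyloid-free astrocytes had 28.5 and 38.2 CPM without Cre and 31.9 and 45.9 CPM with Cre. All 9 APPPS1 libraries lay above all 4 amyloid-free libraries, as 0.0748% of all genes tested did, and the log2 change was 0.996 ± 0.17 (edgeR, adjusted p = 0.168). Its copy Ifit3b stood at 30.6 to 66.4 CPM in APPPS1 and 18.5 to 39.3 CPM in amyloid-free astrocytes, which overlap only through mouse 26, with a change of 0.77 ± 0.22. Usp18 had 11.6 to 29.7 CPM against 19.98 CPM in the amyloid-free mouse 759 and 3.65 to 7.04 CPM in the other 3, a change of 1.43 ± 0.33 that was not called. Oas1a and Ifitm3 (1.14 ± 0.28), described below, completed the 4 lowest p-values. Of 2 further genes named after their values were seen, Rtp4, a chaperone of receptors, had a median of 28.1 CPM in APPPS1 against 16.8 CPM in amyloid-free astrocytes, and Ifit1 22.6 against 6.69 CPM. Lgals3bp changed by 0.40 ± 0.13 in astrocytes, with 124 to 198 CPM in APPPS1 and 105.5 to 134 CPM in amyloid-free libraries, and was not called.

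Neither receptor chain was called in astrocytes. Ifnar1 had 72.0, 65.0, 68.0, 65.5 and 61.5 CPM in APPPS1 Cre-negative, 71.2, 64.8, 62.9 and 72.4 CPM in APPPS1 Cre-positive, and 66.1, 55.3, 80.0 and 79.5 CPM in amyloid-free libraries. Ifnar2 had 38.1, 27.8, 26.0, 34.3 and 21.0 CPM, then 42.0, 36.9, 34.9 and 41.5 CPM, and 33.1, 28.5, 35.6 and 37.7 CPM in the same order. Their changes of -0.07 ± 0.09 and -0.01 ± 0.15 were not called. Among the factors, Irf7 had 11.6, 7.77, 4.04, 9.24 and 11.6 CPM, then 15.1, 9.13, 5.29 and 9.45 CPM, and 4.95, 6.02, 3.67 and 5.84 CPM in amyloid-free astrocytes.

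Irf9 had 42.5, 27.4, 24.6, 26.1 and 46.6 CPM in APPPS1 Cre-negative astrocytes and 36.9, 36.2, 24.6 and 41.7 CPM in APPPS1 Cre-positive ones. It had 20.8 and 28.3 CPM in amyloid-free Cre-negative and 18.4 and 17.97 CPM in amyloid-free Cre-positive astrocytes. Only the amyloid-free mouse 759 reached the APPPS1 range. Stat2 had 27.2, 26.1, 38.1, 30.6 and 33.2 CPM, then 26.8, 38.4, 23.6 and 36.3 CPM, and 24.5, 21.8, 29.8 and 35.9 CPM in the same order of groups. The log2 changes were 0.85 ± 0.33 for Irf7, 0.68 ± 0.21 for Irf9 and 0.16 ± 0.15 for Stat2, with adjusted p-values of at least 0.414 in edgeR.

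**Figure D3:**
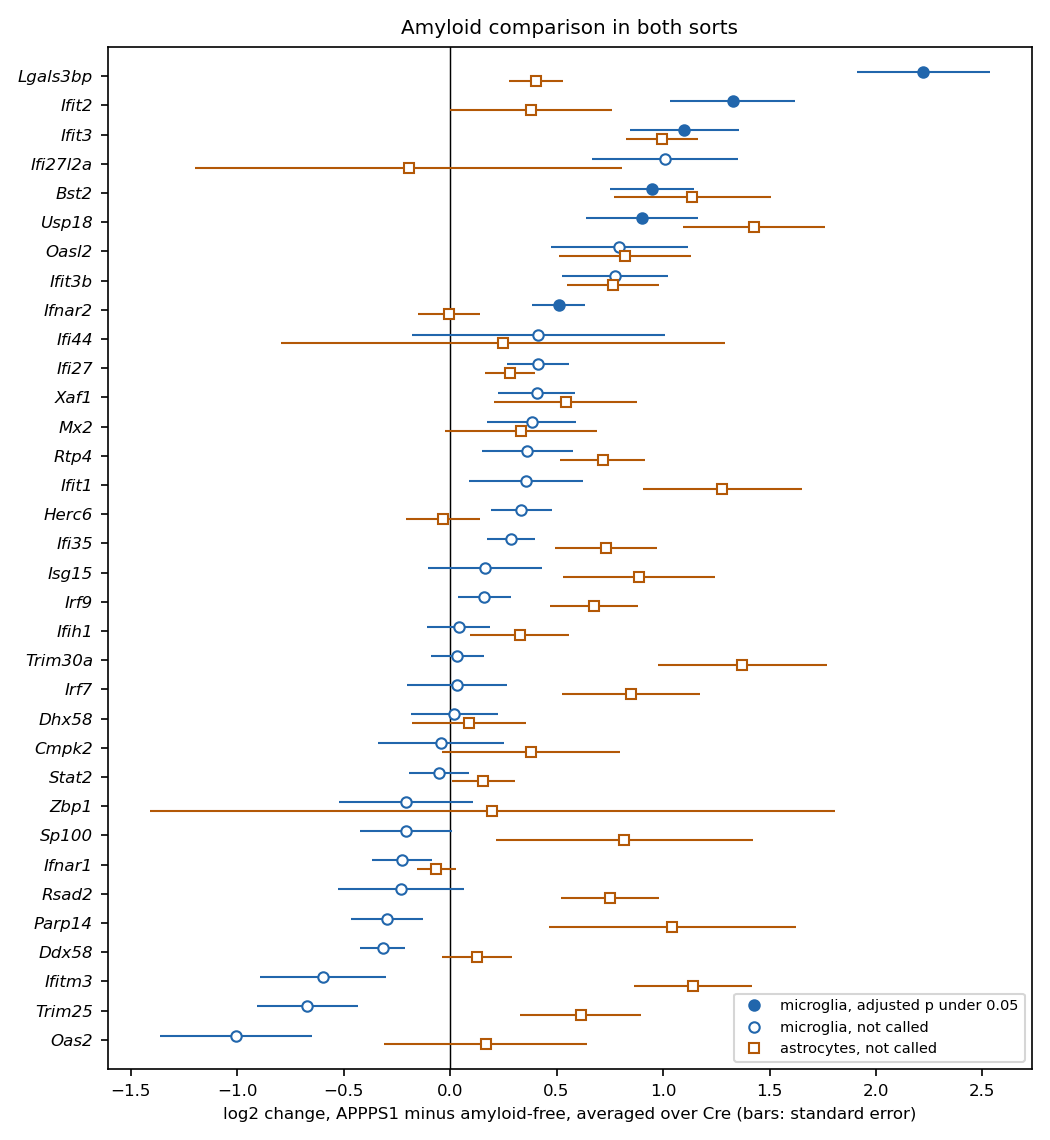
Log2 change of each gene between APPPS1 and amyloid-free mice, averaged over Cre, in microglia (circles) and astrocytes (squares), with standard errors as bars and filled symbols for an adjusted p under 0.05. Only microglia have called genes, up to Lgals3bp at 2.22, and most astrocyte changes lie right of 0; Oas1a, Mx1 and Oas3, whose astrocyte values rest on libraries at 0, are not drawn.

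Split by Cre, 0 of 36 passed for amyloid in Cre-negative astrocytes in edgeR, as did 0.0% of genes. There were 4 at an unadjusted p under 0.05, where 4.06% of all genes were. DESeq2 called 1 of the set and 19 of all genes, and limma voom 0 of the set. The lowest p-values were those of Ifit3 (log2 change 1.02 ± 0.24), Ifit3b (1.02 ± 0.31), Lgals3bp (0.60 ± 0.18) and Rsad2 (0.92 ± 0.32), the last the radical enzyme viperin. In Cre-positive astrocytes 2 of the 36 passed as higher, Ifitm3 and Oas1a, where 0.663% of genes passed, 0.578% as higher and 0.0848% as lower. The same 2 genes were lower with Cre in amyloid-free astrocytes, where 0.204% of genes passed, 0.16% as lower and 0.0449% as higher. Both comparisons use the amyloid-free Cre-positive pair, so they are not independent.

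Ifitm3, a membrane protein that blocks virus entry, had 10.4 and 13.9 CPM in the amyloid-free Cre-positive astrocytes. It had 44.4 and 119 CPM in the amyloid-free Cre-negative ones. It had 94.1, 57.7, 56.6, 58.5 and 68.6 CPM in APPPS1 Cre-negative and 109, 67.8, 51.5 and 63.9 CPM in APPPS1 Cre-positive astrocytes. The pair stood below all 11 other libraries, with a log2 change of 2.56 ± 0.43 for amyloid with Cre (edgeR, adjusted p = 0.0202) and -2.76 ± 0.46 for Cre without amyloid (edgeR, adjusted p = 0.0442). The endothelium markers were low in the same pair. They summed to 79.4 and 106.7 CPM there, to 313 and 1011 CPM in amyloid-free Cre-negative astrocytes and to 229 to 1142 CPM in APPPS1 astrocytes, with none of the 10 at 0 in any library. The 8 pericyte and smooth muscle markers, none at 0, summed to 232 and 276 CPM in the pair and to 347 to 2910 CPM elsewhere. Other lists were low with Cre without amyloid too. Median log2 changes were -2.4 for oligodendrocyte precursor, -1.555 for oligodendrocyte and -1.437 for ependyma and choroid plexus markers, beside -2.545 for endothelium. Those of lymphocyte, microglia, neuron, and monocyte and neutrophil markers were positive. With the endothelium markers as a covariate the amyloid change of Ifitm3 with Cre was 1.16 ± 0.33 and the change with Cre without amyloid -1.35 ± 0.36, and neither was called. That covariate, the mean of the markers on the log2 scale, was 2.35 to 2.64 in the pair and at least 3.65 in every other group. The fit therefore cannot separate the markers from the genotype of the pair. Ifitm3 was also not called for amyloid without either mouse of the pair, with limma voom or with mouse 459 added. The library of mouse 459 labelled astrocyte holds the opposite profile, so the fit with it cannot judge the call. The call of Ifitm3 for Cre held in 4 of the 13 fits without 1 mouse.

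**Figure D4:**
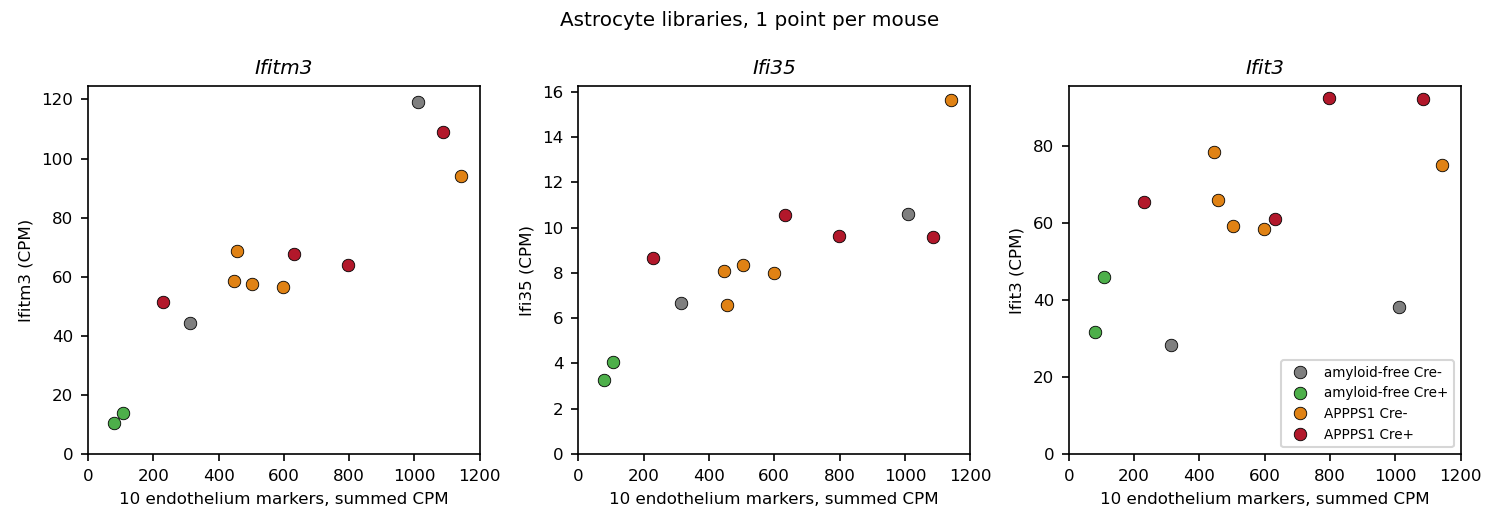
CPM of Ifitm3, Ifi35 and Ifit3 in the 13 astrocyte libraries against the summed CPM of 10 endothelium markers, 1 point per mouse, coloured by genotype group. The 2 amyloid-free Cre-positive libraries lie lowest on the marker axis, at 79.4 and 106.7 CPM, and lowest for Ifitm3 and Ifi35, while Ifit3 is lowest in the 4 amyloid-free libraries; no APPPS1 library lies below 229 CPM on the marker axis.

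Oas1a had 0 counts in both amyloid-free Cre-positive astrocyte libraries, which allows up to 0.0822 CPM in mouse 22 and 0.0682 CPM in mouse 26, at 3 counts per library. It had 2.43, 2.34, 2.20, 2.58 and 1.58 CPM in APPPS1 Cre-negative, 1.38, 2.15, 2.67 and 1.66 CPM in APPPS1 Cre-positive and 0.649 and 5.79 CPM in amyloid-free Cre-negative astrocytes. Against the higher of those limits, the mean of the APPPS1 Cre-positive libraries was at least 23.9-fold higher and that of the amyloid-free Cre-negative ones at least 39.2-fold higher. The latter rests on mouse 759, and the other library of that pair, mouse 465, was at least 7.89-fold higher. Oas1a was the only gene of the set called for the difference of the amyloid change between Cre states in astrocytes (edgeR, adjusted p = 0.0361), where 0.155% of genes were called. That call was lost without any 1 of 8 of the 13 mice, and under either covariate. For Ifitm3 the same difference was 2.85 ± 0.54 (edgeR, adjusted p = 0.0516).

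**Figure D5:**
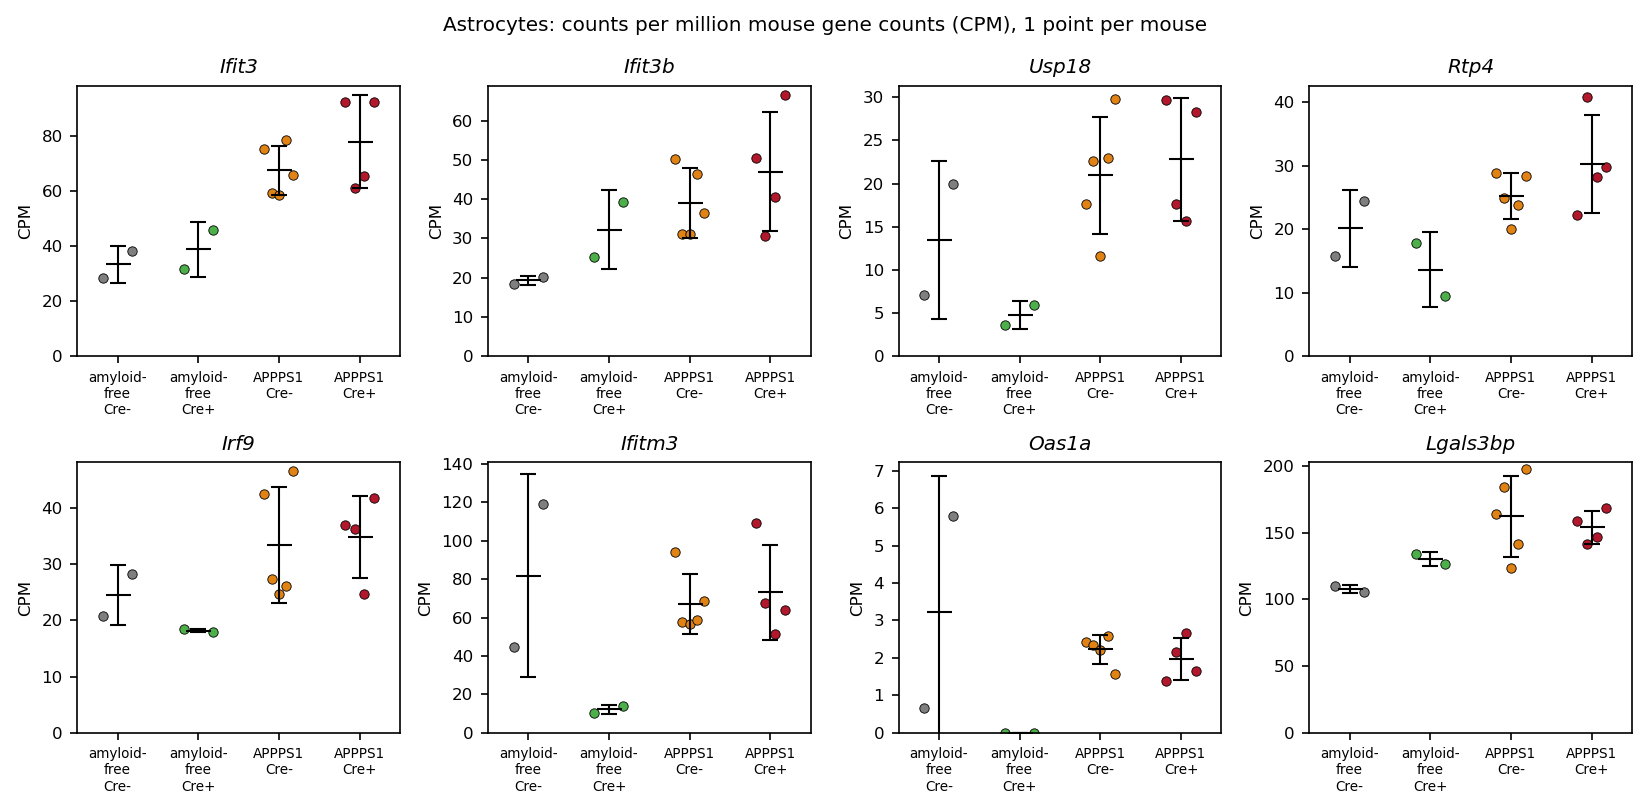
CPM of 8 genes in astrocytes, 1 point per mouse, with the mean and SD of each genotype group; bars that would pass below 0 are cut at the axis. Ifit3 is above 58 CPM in every APPPS1 library and below 46 CPM in every amyloid-free one, and Ifitm3 and Oas1a are lowest in the 2 amyloid-free Cre-positive mice.

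Cre in APPPS1 mice, the comparison closest to the study's question, called 0 genes of the set in either cell type. In microglia 0.00568% of all genes passed, and 1 of the 37, against 3.5% of all genes, had an unadjusted p under 0.05: Bst2, with a log2 change of -0.68 ± 0.21. The next lowest p-values were those of Ifi35 (-0.19 ± 0.12), Ifi27 (-0.25 ± 0.16) and Oas3 (-0.65 ± 0.45). In astrocytes 0.00997% of all genes passed, and 1 of the 36, against 6.7% of all genes, had an unadjusted p under 0.05: Ifnar2, at 0.36 ± 0.16, followed by Trim25 (0.47 ± 0.30), Dhx58 (0.46 ± 0.30) and Ifi27 (-0.16 ± 0.13). DESeq2 and limma voom also called 0 in both. The median log2 change with Cre was -0.06 in microglia and 0.07 in astrocytes. In amyloid-free microglia Cre gave 0 calls, where 0.0114% of genes passed, with 5 at an unadjusted p under 0.05, where 14.8% of all genes were. DESeq2 called 1 of the set and 347 of all genes, and limma voom 0 of the set. The lowest p-values there were those of Trim25 (1.38 ± 0.41), Bst2 (-0.91 ± 0.32), Ifitm3 (1.37 ± 0.51) and Rsad2 (1.11 ± 0.50). Bst2 was lower with Cre in both amyloid states of microglia, but neither difference passed.

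The amyloid change differed between the sorts for Lgals3bp alone among the 37, with a log2 difference of 1.85 ± 0.35, microglia minus astrocytes (edgeR, adjusted p = 0.00884), where 1.5% of genes passed, 0.773% as higher. Lgals3bp was called again with the mouse as a block, at 1.78 ± 0.29. It was not called without mouse 26, without mouse 759 or with mouse 459 added, when it was 1.15 ± 0.71. Both libraries of mouse 459 hold the opposite profile, so the fit with them cannot judge the call. The next lowest p-values belonged to 2 genes named here after their values were seen. Ifitm3 had a difference of -1.71 ± 0.45 (edgeR, adjusted p = 0.0566) and Trim30a, a regulator of immune signalling, one of -1.31 ± 0.37 (0.0830), and neither passed.

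Libraries of 1 group also differed from each other across the set. Among APPPS1 Cre-negative microglia, mouse 469 was lowest for 22 of the 37 genes and mouse 779 highest for 17. In astrocytes of the same group mouse 469 was lowest for 18, and among APPPS1 Cre-positive astrocytes mouse 460 was lowest for 20. Of the 2 amyloid-free Cre-negative mice, mouse 759 was the lower in microglia for 31 genes and the higher in astrocytes for 28. The same counts over all genes are not given here, and CPM leave out the TMM scaling. These counts therefore do not show a difference particular to the set.

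Other genes of the pathway were read from lists chosen by function. Interferon genes themselves were barely detected: of 21 ligand genes, Ifnb1 and Ifng alone were tested in microglia, with medians of 0.401 and 0.150 CPM in APPPS1 and 0.530 and 0.866 CPM in amyloid-free mice, and neither was called. The counts that follow for amyloid in microglia, averaged over Cre, stand beside 6.06% of all genes called higher and 3.52% called lower. Of 14 genes of receptor signalling in microglia, amyloid raised 1, Irf8 (log2 change 0.60 ± 0.12), a factor that shapes microglia. Of 15 further sensors, 2 fell, Ifi203 (-1.50 ± 0.35) and Mndal (-1.48 ± 0.36), both DNA-binding proteins of the same family. Of 47 further induced genes, 5 rose and 3 fell: the chemokine Cxcl10 (0.84 ± 0.16), Phf11b (0.88), Phf11d (0.73), Tor3a (0.52) and Ube2l6 (0.82), the conjugating enzyme of Isg15, rose, and Ifi47 (-0.91), Ly6a (-1.04) and Samd9l (-0.90) fell. Of 12 GTPases induced by interferon gamma, 1 fell, Gbp2 (-0.72 ± 0.20). Of 13 negative regulators 2 rose, Nlrc3 (2.58 ± 0.42) and Rnaseh2a (0.65 ± 0.12), and 1 fell, Samhd1 (-0.96 ± 0.25), and of 10 antigen processing genes 1 rose, B2m (0.76 ± 0.20). In astrocytes none of these lists had a called gene for amyloid averaged over Cre in edgeR, where 0.0% of all genes passed, and the lowest adjusted p among them was that of Igtp, at 0.168 with a change of 0.69 ± 0.14.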

How the data were processed

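The deposited table holds raw read counts per gene, made by the authors with bcl2fastq, STAR and featureCounts of Subread on GRCm38 and GRCh38, per the submitters' processing notes. Counting settings, strand and annotation release are not given in the sources used here. Repeated rows of 258 gene IDs were kept once. Human genes, 0.0420% to 0.237% of counts, were kept out of tests and library sizes. Tests on mouse gene counts used R 4.3.3 and edgeR 4.0.16, with TMM scaling, filterByExpr by group, 1 term per genotype group, quasi-likelihood F tests, Benjamini-Hochberg adjustment over all genes tested, with 13 libraries per sort or 26 in all. DESeq2 1.42.0 and limma 3.58.1 (voom) were alternatives. The SE of a change was taken as its size divided by the root of its F statistic. CPM use mouse gene totals without TMM. Exon lengths come from GENCODE M21. Gene names follow the file. The scripts were tested on simulated data.

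The genes, lists and tests were chosen with earlier results of these data known. Named genes are those called; where more than 12 passed, the 12 largest changes; and where none passed, the 4 lowest p-values at a mean log2 CPM of at least 1. Mouse numbers pair the sorts, since both libraries of a number come from 1 animal. Deviations from group means correlated at -0.0588 to 0.228 over 13 pairs. Of these, 3 were above 0.1, and the best match was the library of the same mouse for 2. In a group of 2 mice the deviations mirror each other, so both pairs share 1 value. Limits for a count of 0 cover counting error only, since no molecular identifiers are described. One gene of the pathway lists is not reported here by name.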

Additional observations from a re-analysis of the deposited data

Results flagged for a closer look

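In 7 of 146 sets of 4 or 5 libraries of 1 group, 1 library stood apart on the log2 scale, and chance alone gives about 1 in 20. On the CPM scale there were 10 such sets. In microglia, mouse 475 was low among APPPS1 Cre-positive libraries for Ifit1, at 8.27 CPM against 14.9 to 15.5 CPM in the others, and for Oas2, at 4.37 CPM. Mouse 443 was high in that group for Ifitm3, at 191 CPM against 156 to 159 CPM, and mouse 469 was low among APPPS1 Cre-negative libraries for Ifnar2, at 89.7 CPM. In astrocytes, mouse 469 was low for Cmpk2, at 3.09 CPM, and mouse 439 high for Ifi35, at 15.6 CPM, both APPPS1 Cre-negative. Mouse 460, APPPS1 Cre-positive, was low for Sp100, at 4.95 CPM.

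The amyloid change of Oas1a in astrocytes differed between Cre states by a fitted 9.94 on the log2 scale, which depends on the handling of the 2 libraries at 0 counts and is no measure of size. The amyloid change of Lgals3bp differed between microglia and astrocytes by 1.85. In the library of mouse 459 labelled astrocyte, which no comparison used, 32 of the 37 genes lay above every astrocyte library, and 24 lay within the range of the microglia libraries.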

How the results depend on the processing

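Counts of called genes were recomputed under each alternative. Fits with mouse 459 as labelled put a library of the opposite profile into a group. Calls lost in those fits therefore do not measure how stable a call is. Averaged over Cre in microglia, the 6 calls for amyloid became 10 with no filter on low counts, 13 with DESeq2 (10 higher and 3 lower), and 0 with mouse 459 as labelled or with either marker covariate, and 1 to 12 without 1 mouse. Over all genes that comparison gave 1685 calls, and 2722 with DESeq2 or 19 with mouse 459. In Cre-negative microglia the 0 calls became 2 with no filter and 3 with DESeq2, and 0 to 3 without 1 mouse. In Cre-positive microglia the 3 calls became 9 with no filter, 10 with DESeq2 and 7 with only the groups compared in the fit. They became 0 with mouse 459 or either covariate. Without 1 mouse they ran from 0 to 8, with 0 reached without mouse 26 or 458 and 8 without mouse 469. The share of all genes called in Cre-positive microglia under these settings is not given here. These counts are therefore not read as a result about the set. The amyloid change of Trim25 there turned to 0.415 once other-cell markers entered as a covariate. In Cre-positive microglia that covariate was 0.78 to 1.26 in APPPS1 and 2.15 to 2.87 in amyloid-free libraries, so the 2 cannot be told apart. The cause was not tested. For Cre in amyloid-free microglia DESeq2 gave 1 call and leaving out 1 mouse 0 to 2, and the difference between Cre states gave 0 to 1, in both cases highest without mouse 22.

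In astrocytes DESeq2 gave 8 calls for amyloid averaged over Cre and 1 without Cre. With Cre the 2 calls became 11 with DESeq2, 0 with limma voom, mouse 459 or the endothelium covariate, and 1 with all other-cell markers. They became 0 to 3 without 1 mouse, with 0 without mouse 22 or 26. Calls over all genes with Cre under these alternatives are not given here. The 11 are therefore not read as a result about the set. For Cre in amyloid-free astrocytes the 2 calls became 0 with limma voom, mouse 459, either covariate or the compared groups alone, and 0 to 2 without 1 mouse. The difference between Cre states gave 2 calls with no filter or with DESeq2, 0 with limma voom, mouse 459 or either covariate, and 0 to 2 without 1 mouse. The causes were not tested.

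Between the sorts, 32 to 34 genes passed under every alternative run. The difference of the amyloid change between sorts gave 2 calls with no filter, 6 with DESeq2 and 0 with mouse 459. It gave 0 to 4 without 1 mouse, lowest without mouse 26 and highest without mouse 469. Calls over all genes under these settings are not given here. With the mouse as a replicate block, which pairs the sorts, the sort comparison again gave 32 calls and the difference 1, while calls over all genes went from 325 to 80 for the latter. Within a sort, groups share no mouse, so no block exists. The endothelium covariate was chosen after the values were seen. In astrocytes it did not overlap between the amyloid-free Cre-positive pair and the other groups, so it cannot be told apart from that genotype. The response element was in a promoter window of 13 genes, or 11 with the longer motif. Of the values recomputed for single called genes, 795 kept direction and call, 118 kept direction and lost the call, and 1, Trim25, turned. This tally pools all comparisons, and the sort comparison supplied 32 of the called genes. It therefore says little about the amyloid and Cre calls, whose losses are given above.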
